A study of Mus musculus with 6 samples.

Results

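Inflammasomes and the necrosome are the intracellular complexes through which a cell answers signs of infection or damage with a lytic form of death. The genes described here were 10 chosen by name for these pathways, with earlier results of these data known. They were Casp1, Casp4, Gsdmd, Nlrp3, Pycard, Il18, Zbp1, Ripk1, Ripk3 and Mlkl. Each name matched 1 row among the 53700 genes in the deposited expression table. The RNA-seq data came from the luciferase-expressing mouse CRC line SL4, with 3 pLV-SEMA6A libraries from cells carrying a lentivirus for SEMA6A overexpression and 3 pLV-Control libraries from cells without SEMA6A overexpression. No independently made pLV-SEMA6A lines were described, and the sources used here do not say whether the sequenced control cells carried an empty vector. SEMA6A and any other difference between the cell lines therefore cannot be told apart. The labels do not say whether libraries of a group came from separate cultures, so the p-values measure only the spread between these libraries, which may be technical.

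In the inflammasome pathway, a sensor such as NLRP3 recruits the adaptor ASC, encoded by Pycard, which assembles caspase-1. Caspase-11, the product of mouse Casp4, binds bacterial lipopolysaccharide in the cytosol without these partners, and either caspase cleaves gasdermin D into a membrane pore. Caspase-1 also processes pro-IL-18, and epithelium is a known source of this cytokine in the colon. In necroptosis, ZBP1 or RIPK1 engages RIPK3, which phosphorylates MLKL so that it permeabilizes the plasma membrane.

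As the labels imply, Sema6a measured 98.7, 118 and 112 TPM with the SEMA6A lentivirus and was listed at 0 in each control. TPM, a level scaled by transcript length and library total, keeps no read depth, so no counting error could be derived. In pLV-SEMA6A replicate 2 the mitochondrial gene mt-Co3 stood at 0.33 TPM, against 140.6 TPM or more elsewhere, and the cause was not tested. Values of 0 are given only as listed and are not read as absence of the transcript. Of 8 colon epithelial markers, Epcam and Cdx2 were at 0 in every library and 1 (Lgals4) had a mean of at least 1 TPM, so the labelled tissue of origin was not visible in them. Their summed level was 1.91 to 2.82 TPM for pLV-Control, against 0.43 to 1.33 TPM for pLV-SEMA6A. Lgals4 carried the lower sum, from 2.15 ± 0.318 to 0.363 ± 0.411 TPM (SD, n = 3), and reached 1 TPM only through its pLV-Control level. The other epithelial markers stayed at or below 0.39 TPM. Among them Krt8 was not lower (means of 0.287 and 0.313 TPM), and Vil1 was higher (0.00667 and 0.0733 TPM) without overlap. Of 5 fibroblast markers, 4 had a mean of at least 1 TPM, with sums of 15.45 to 16.08 TPM for pLV-Control, against 12.7 to 13.78 TPM for pLV-SEMA6A. Pdgfrb and Pdgfra carried the lower sum, whereas Col1a1 went the other way, from 1.27 ± 0.106 to 3.60 ± 0.244 TPM (SD, n = 3) without overlap. Of 6 macrophage markers 1 reached that mean (Cd68), Adgre1 and Itgam were at 0 throughout, and the sums were 1.05 to 2.53 and 0.87 to 1.76 TPM. The sums of 5 T cell markers stayed at or below 0.1 TPM, with Cd3e, Cd3g and Cd8a at 0, and those of 4 endothelial markers at or below 0.22 TPM, with Cdh5 at 0. The part that the lower epithelial and fibroblast sums had in the results was not tested.

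Promoter sequences are shown first for Casp4 and Il18, which fell in the comparison, and for Mlkl and Ripk1, which did not pass its fold limit. Whether any motif has a part in these differences was not tested. RefSeq (GRCm38.p6) gave 11 promoters for 8 of the 10 genes, each with 250 bases before the start site and 50 from it, and none for Zbp1 and Gsdmd. They were searched on both strands for the ISRE core GAAANNGAAA, bound by STAT and IRF complexes, for the GAS core TTCNNNGAA, bound by STAT dimers, and for the kappa B consensus. Capitals mark every match.

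Casp4 (chr9:5308599-5308898, plus strand): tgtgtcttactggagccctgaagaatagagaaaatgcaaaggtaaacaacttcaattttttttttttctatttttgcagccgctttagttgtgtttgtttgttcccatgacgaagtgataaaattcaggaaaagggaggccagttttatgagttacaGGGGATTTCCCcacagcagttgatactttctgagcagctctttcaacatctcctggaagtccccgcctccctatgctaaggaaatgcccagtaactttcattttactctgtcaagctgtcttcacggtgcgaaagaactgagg
Il18 (chr9:50554450-50554749, plus strand): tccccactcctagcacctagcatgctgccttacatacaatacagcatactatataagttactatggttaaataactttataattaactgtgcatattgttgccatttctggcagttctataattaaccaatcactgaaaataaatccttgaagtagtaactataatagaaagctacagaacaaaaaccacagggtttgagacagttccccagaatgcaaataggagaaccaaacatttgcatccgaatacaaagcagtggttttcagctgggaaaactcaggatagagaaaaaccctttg
Mlkl (chr8:111338156-111338455, minus strand): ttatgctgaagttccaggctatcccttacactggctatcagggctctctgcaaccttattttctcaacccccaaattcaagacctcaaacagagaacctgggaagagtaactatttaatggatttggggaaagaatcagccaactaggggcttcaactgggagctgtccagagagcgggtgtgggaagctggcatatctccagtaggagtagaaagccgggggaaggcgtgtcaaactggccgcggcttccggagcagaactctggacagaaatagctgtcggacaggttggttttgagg
Ripk1, the second of its promoters (chr13:34002624-34002923, plus strand): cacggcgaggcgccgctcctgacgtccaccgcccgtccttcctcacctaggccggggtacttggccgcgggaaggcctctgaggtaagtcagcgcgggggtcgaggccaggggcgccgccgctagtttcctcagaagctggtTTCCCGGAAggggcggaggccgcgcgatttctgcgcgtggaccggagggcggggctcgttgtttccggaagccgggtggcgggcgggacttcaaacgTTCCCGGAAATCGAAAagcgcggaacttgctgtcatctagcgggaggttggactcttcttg

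Of the 2 Casp4 promoters, the one printed held 2 kappa B matches that overlap each other, beginning 93 and 92 bases before the start site. The other overlaps it and held the same matches, 104 and 103 bases before its own start site. The first Nlrp3 promoter, not printed, held a kappa B match that begins 186 bases before the start site. Of the 2 Ripk1 promoters, the one printed held an ISRE core that begins 5 bases before the start site and GAS cores that begin 108 and 11 bases before it, the latter overlapping the ISRE core, while the other held none of the 3 motifs. Neither the Il18 nor the Mlkl window held any of the 3 motifs. Among all 32851 promoters in the table, 3.44% held the ISRE core, 8.3% the GAS core and 4.51% the kappa B consensus. The printed Ripk1 promoter contained 36 CpG dinucleotides and the other 22, against 7 for Mlkl, 5 for Casp4 and 1 for Il18, with a median of 7 over all promoters. A match is only a string of letters in this window, and binding was not measured.

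The comparison asked how expression of these genes differed between pLV-SEMA6A and pLV-Control cells. Zbp1, Casp4, Gsdmd and Il18 were lower in pLV-SEMA6A, and between 20.5% and 57.5% of their control level was left. Mlkl and Ripk1 differed by far less, and the canonical inflammasome genes Casp1, Nlrp3 and Pycard, along with Ripk3, were at or near 0 in both groups. Of the 10 genes, 6 had a mean of at least 1 TPM and were tested, and 4 of the 6 were DEGs with lower expression (10.8% of all 12510 genes tested). A DEG had an adjusted p under 0.05 in limma and an absolute difference over 0.5 in log2(TPM + 1), a scale that understates changes at low levels. None of the 6 was a DEG with higher expression (5.12% of all genes tested), and Ripk1 alone was higher without adjustment (limma fitted across all genes, unadjusted p = 0.00806, adjusted p = 0.0211). Without the fold limit, 5 were lower (28.2% of all genes) and 1 was higher (19.5%). Zbp1, Casp4, Gsdmd and Il18 were also DEGs without pLV-SEMA6A replicate 2, the library with the low mt-Co3 value. The libraries of the groups did not overlap in the same 5 that were lower (34.7% of all genes) and the 1 that was higher (23.8%). The median difference over the 6 genes was −0.88 on the log2 scale, beside −0.06 over all genes tested. Because the genes were chosen with earlier results known, these counts, shares and medians describe them and are no test of the set. In bulk RNA, fewer cells expressing a gene and less RNA per cell cannot be told apart. An exact permutation test of 3 against 3 libraries gave p = 0.1 for each of these 6 genes, the smallest value it can give, whereas limma borrows the spread of the other genes.

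**Figure D1:**
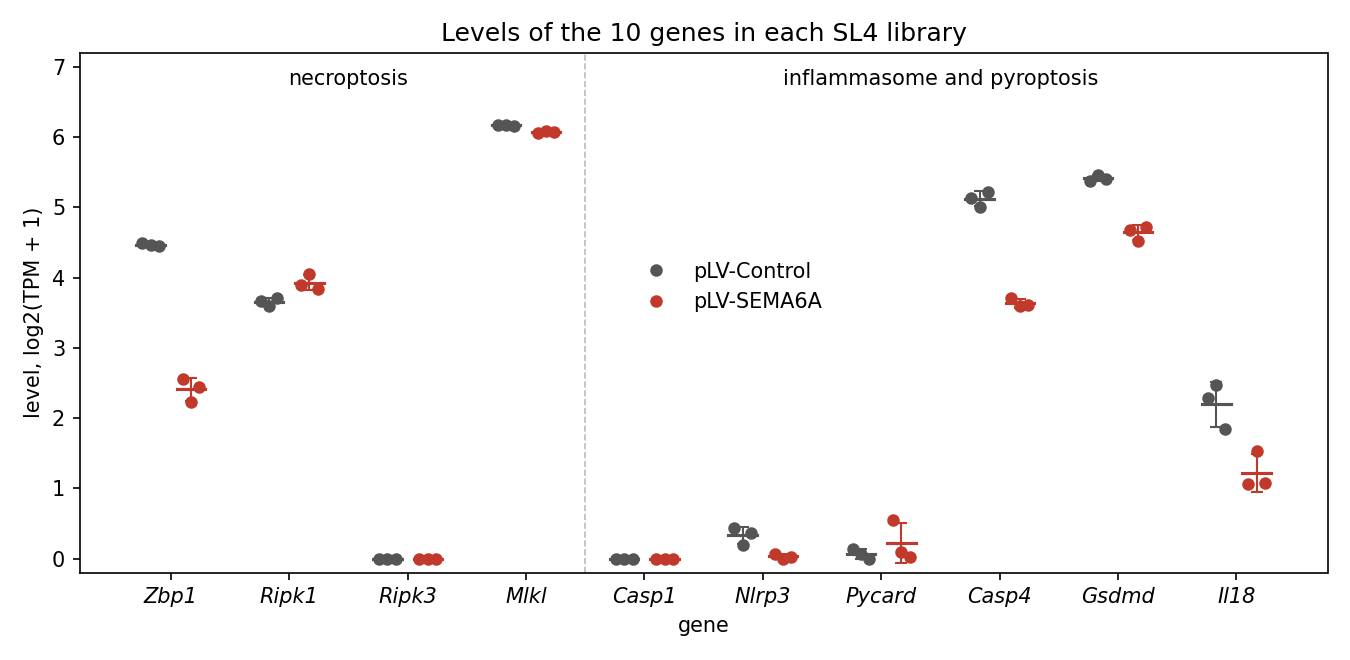
Level of each of the 10 genes in log2(TPM + 1), with 1 point per library (grey, pLV-Control, red, pLV-SEMA6A), the group mean as a horizontal line and the SD (n = 3) as error bars. The red points lie well below the grey ones for Zbp1, Casp4, Gsdmd and Il18, nearly level with them for Mlkl and slightly above them for Ripk1, while Ripk3 and Casp1 sit at 0 throughout.

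Among the necroptosis genes, Zbp1 differed most. It encodes a sensor of nucleic acids in the left-handed Z conformation and is itself inducible by interferon. Zbp1 (ENSMUSG00000027514, chromosome 2 from 173206612 to 173218923, minus strand, GRCm38) measured 21.52, 21.13 and 20.88 TPM in the 3 controls, against 4.88, 3.69 and 4.46 TPM with the SEMA6A lentivirus. Every pLV-SEMA6A library was thus far below every pLV-Control library, and both groups were narrow. The group mean went from 21.2 ± 0.323 to 4.34 ± 0.604 TPM (SD, n = 3), which left 20.5% of the control level. The difference in log2(TPM + 1) was −2.06 (SE 0.09, 95% confidence interval −2.28 to −1.84, limma adjusted p = 1.6e-05), and 78 of the 12510 genes tested had a lower value. Its level exceeded that of 53.3% of the genes tested in pLV-Control and of 20.9% in pLV-SEMA6A.

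Ripk1 encodes a kinase and scaffold of the TNF receptor complex that can start either survival signalling or cell death. Its levels were 11.72, 11.08 and 12.10 TPM for pLV-Control, against 13.94, 15.56 and 13.34 TPM for pLV-SEMA6A. The groups did not overlap, although the gap between them was smaller than the range within pLV-SEMA6A. The difference was 0.27 in log2(TPM + 1) (SE 0.07, 95% confidence interval 0.10 to 0.45, limma adjusted p = 0.0211), under the fold limit for a DEG. Its adjusted p missed the threshold without pLV-Control replicate 1 (0.0536), pLV-Control replicate 2 (0.0668) or pLV-SEMA6A replicate 2 (0.0518). Ripk1 (ENSMUSG00000021408, chromosome 13 from 34002363 to 34037147, plus strand) shares 2.89% of its exonic bases with Serpinb6a on the opposite strand and 6.12% with the pseudogene Gm17084. The Serpinb6a level was 546 ± 8.35 TPM for pLV-Control and 539 ± 4.96 TPM for pLV-SEMA6A, and whether the counting used strand is not given in the sources used here, so its reads and those of Ripk1 cannot be told apart in the shared bases. Of the 31-base stretches in Ripk1 transcripts, 8.51% also occur in other genes, most of them in Gm17084.

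Mlkl encodes the pseudokinase that executes necroptosis at the membrane, and it had the highest level of the 10 genes. Its values were 71.49, 70.99 and 70.35 TPM for pLV-Control, against 65.92, 66.82 and 66.46 TPM for pLV-SEMA6A, with narrow groups that did not overlap. The difference was −0.09 in log2(TPM + 1) (SE 0.03, 95% confidence interval −0.16 to −0.03, limma adjusted p = 0.0293), which left 93.6% of the control level. This value rested on the scaling of the libraries. It was −0.0009 with each library centred on its median (limma adjusted p = 0.982), and its adjusted p missed the threshold when any 1 library was left out (from 0.0572 to 0.0827). Ripk3, the kinase that activates MLKL, was listed at 0 in all 6 libraries. The Mlkl level was 3.35 ± 0.0250 times that of Zbp1 in pLV-Control and 15.5 ± 2.36 times in pLV-SEMA6A, as ratios of TPM within each library.

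Among the inflammasome genes tested, Casp4 was the most reduced. Casp4 (ENSMUSG00000033538, chromosome 9 from 5308828 to 5336783, plus strand) measured 34.24, 31.30 and 36.44 TPM in the 3 controls, against 12.07, 11.09 and 11.16 TPM with the SEMA6A lentivirus. The lowest control value was far above the highest pLV-SEMA6A value, and 33.7% of the control mean was left. The difference was −1.49 in log2(TPM + 1) (SE 0.07, 95% confidence interval −1.66 to −1.33, limma adjusted p = 1.8e-05), and 180 of the genes tested had a lower value. On GRCm38, Casp4 lies between Casp1, which ends 1562 bases before it, and Casp12, which starts 8646 bases after it, all on the plus strand. Casp1, the caspase of the canonical inflammasome, was listed at 0 in all 6 libraries. Casp12, an inflammatory caspase that belongs to one of the pathway lists below, fell from 9.57 ± 1.15 to 5.15 ± 0.917 TPM (−0.79 in log2(TPM + 1), limma adjusted p = 0.00335).

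Gsdmd, whose product forms the pore after cleavage, fell less than Casp4. Gsdmd (ENSMUSG00000022575, chromosome 15 from 75862327 to 75867408, plus strand) had control levels of 40.71, 43.21 and 41.50 TPM, against 24.67, 22.03 and 25.46 TPM for pLV-SEMA6A. The groups were separated by more than the range within either. The difference was −0.77 in log2(TPM + 1) (SE 0.06, 95% confidence interval −0.92 to −0.63, limma adjusted p = 0.000145), and 57.5% of the control mean was left. Within a library, the Casp4 level was 0.815 ± 0.0802 times that of Gsdmd in pLV-Control and 0.477 ± 0.0342 times in pLV-SEMA6A, so the enzyme's transcript was lower relative to its substrate's, with ranges of 0.724 to 0.878 and 0.438 to 0.503 that did not overlap.

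Il18 was the least abundant of the genes tested and the least precise. Il18 (ENSMUSG00000039217, chromosome 9 from 50554827 to 50581840, plus strand) had control levels of 3.86, 4.55 and 2.59 TPM, against 1.09, 1.89 and 1.10 TPM for pLV-SEMA6A. The lowest control library and the highest pLV-SEMA6A library were close, and the groups still did not overlap. The difference was −0.98 in log2(TPM + 1) (SE 0.22, 95% confidence interval −1.50 to −0.45, limma adjusted p = 0.0108), an interval whose nearer end lies inside the fold limit.

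Nlrp3 and Pycard were below the limit for testing. Nlrp3, the sensor, measured 0.35, 0.14 and 0.29 TPM in the controls, against 0.05, 0 and 0.02 TPM with the SEMA6A lentivirus, so its groups did not overlap, at levels under 1 TPM throughout. In the fit without a filter on low values its difference was −0.30 in log2(TPM + 1) (limma adjusted p = 0.0315). The counting error at such levels is unknown, so this difference is not read as a result. Pycard, the adaptor, measured 0.10, 0.05 and 0 TPM in the controls, against 0.46, 0.07 and 0.02 TPM with the SEMA6A lentivirus, with groups that overlapped and 1 library above the rest (0.15 without the filter, limma adjusted p = 0.519). Of the 31-base stretches in Pycard transcripts, 12.7% also occur in other genes, and 8 of the 10 genes were at or below 1.98%.

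**Figure D2:**
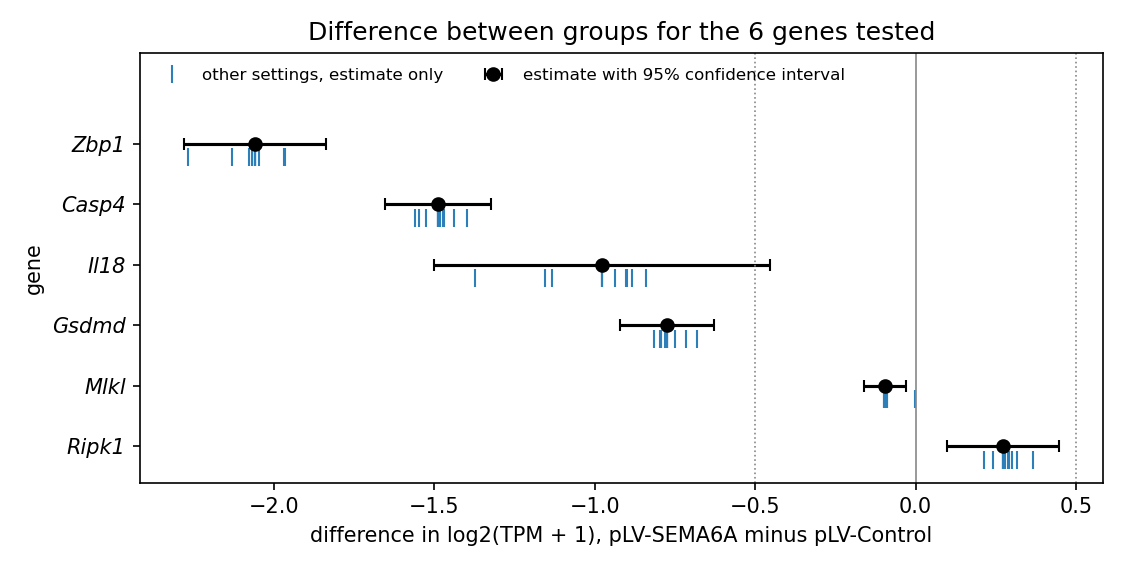
Difference between pLV-SEMA6A and pLV-Control in log2(TPM + 1) for the 6 genes tested, with the estimate (black point), its 95% confidence interval (bar) and the estimates under the other settings (blue ticks). Dotted lines mark a difference of 0.5 in either direction; Zbp1, Casp4 and Gsdmd lie wholly beyond it, the Il18 interval crosses it, and Mlkl and Ripk1 lie inside it.

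The order of the levels also differed between the groups. In pLV-Control it ran from Mlkl through Gsdmd, Casp4, Zbp1 and Ripk1 to Il18, and in pLV-SEMA6A from Mlkl through Gsdmd, Ripk1, Casp4 and Zbp1 to Il18. In each group the library ranges of all neighbours in this order were separate. The closest pair was Ripk1 and Casp4 in pLV-SEMA6A, where the lowest Ripk1 value was 13.34 TPM and the highest Casp4 value 12.07 TPM. Ripk1 thereby went from 0.343 ± 0.0110 times the Casp4 level in pLV-Control to 1.25 ± 0.133 times in pLV-SEMA6A.

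The other genes of these pathways were described in 8 lists of 105 genes, of which 74 were tested. Among them 19 were DEGs with lower expression and 3 with higher expression, against 10.8% and 5.12% of all 12510 genes tested. The same shares apply beside the DEG counts of each list below. The median difference was −0.20 beside −0.06 over all genes tested. Gbp5 and Naip6, both among the 19, reached the limit for testing only through their pLV-Control level. They add no support to that count or median. The lists were also chosen with earlier results known, and they are described by counts and values, without a test of each list. The medians farthest below that of all genes were those of the GTPases that act with caspase-11 and of the STAT and IRF factors.

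The guanylate-binding proteins coat cytosolic bacteria and help caspase-11 reach lipopolysaccharide. All 4 tested GTPases were DEGs with lower expression, and the median difference was −1.45. Gbp3 fell from 63.5 ± 1.08 to 12.1 ± 0.605 TPM (−2.30, limma adjusted p = 7.8e-07). Gbp7 fell by 1.71, Gbp5 by 1.19 and Gbp2 by 0.99 in log2(TPM + 1), with 14.7% of the 31-base stretches of Gbp7 shared with other genes. Gbp5 went from 3.40 ± 0.243 to 0.933 ± 0.0987 TPM. It reached the limit for testing only through its pLV-Control level, so it adds no support to the count of 4 or to the median. The fifth, Gm12250, was below the limit with means of 0.667 TPM for pLV-Control and 0.2 TPM for pLV-SEMA6A.

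STAT and IRF factors are known to drive interferon-inducible genes, Zbp1 and Casp4 among them. Of 5 tested, 4 were DEGs with lower expression, with a median difference of −1.21. Stat2 fell from 58.7 ± 1.29 to 17.3 ± 1.45 TPM (−1.71, limma adjusted p = 7.8e-06). Irf9, which joins STAT2 in a complex that binds ISRE motifs, fell by 1.21 and Irf1 by 1.13. Irf2 was lower by less than the fold limit (−0.41, limma adjusted p = 0.0174), and Irf8 was listed at 0.

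Of 16 inflammasome sensors and cofactors other than Nlrp3, 5 were tested and 2 were DEGs with lower expression. Txnip, a thioredoxin-binding protein linked to NLRP3 activation, fell from 127 ± 6.71 to 61.9 ± 1.56 TPM (−1.02, limma adjusted p = 1.5e-05), with 17.4% of its stretches shared. Naip6, a sensor of bacterial flagellin, fell from 1.79 ± 0.0854 to 0.437 ± 0.0643 TPM (−0.96, limma adjusted p = 0.00278), but 35.0% of its stretches occur in other genes, mainly its paralog Naip5, so the split between them is uncertain. Naip6 also reached the limit for testing only through its pLV-Control level, so it adds no support to the count of 2. Nek7, a kinase that NLRP3 requires, was at 30.1 ± 0.677 and 31.9 ± 0.467 TPM and did not pass the test (0.08, limma adjusted p = 0.122). Aim2, a sensor of cytosolic DNA, was below the limit at 0.58, 1.63 and 0.76 TPM for pLV-Control, against 0.44, 0.39 and 0.23 TPM for pLV-SEMA6A, with 1 control library above the rest.

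Among the other gasdermins, Ninj1 and caspases, 4 of 11 genes were tested and Casp12 was the 1 DEG. Gsdme, another pore-forming gasdermin, was higher by just under the fold limit, from 16.4 ± 0.486 to 23.6 ± 0.822 TPM (0.50, limma adjusted p = 0.000352), and it was past the limit with each library centred on its median. Ninj1, which ruptures the membrane late in lytic death, was lower by 0.15 (limma adjusted p = 0.0064). The Gsdma and Gsdmc paralogs had group means of at most 0.187 TPM.

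In the IL-1 family, 6 of 11 genes were tested and 1 was a DEG. Il1rl1, the receptor for IL-33, fell from 33.8 ± 4.20 to 10.2 ± 1.11 TPM (−1.63, limma adjusted p = 6.9e-05). Il33 itself was at 2.89 ± 0.133 and 3.10 ± 0.357 TPM and did not pass the test (limma adjusted p = 0.617). Il1b, the other main substrate of caspase-1, was listed at 0 throughout. Il18r1, a subunit of the IL-18 receptor, did not exceed a mean of 0.00333 TPM, while its partner Il18rap was lower by 0.31 (limma adjusted p = 0.0322).

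The TNF receptor complex and the caspase-8 checkpoint, which decide whether RIPK1 signals survival or death, had 26 of 27 genes tested, 5 DEGs with lower expression and 1 with higher. Ikbke, a kinase that restrains RIPK1, fell from 7.59 ± 1.12 to 3.27 ± 0.325 TPM (limma adjusted p = 0.000946). Birc2, an E3 ligase for RIPK1, fell by 0.72, Rnf31, the catalytic part of the linear ubiquitin ligase, by 0.69 and Tnfaip3, encoding the editing enzyme A20, by 0.54 in log2(TPM + 1). Cflar, the inhibitory partner of caspase-8, fell from 46.5 ± 0.287 to 29.6 ± 0.557 TPM (−0.63, limma adjusted p = 3.4e-05). Casp8, named here after its value was seen, was lower by just under the fold limit (−0.49, limma adjusted p = 0.00424), and the ratio of Casp8 to Cflar was 0.490 ± 0.0388 in pLV-Control and 0.538 ± 0.0576 in pLV-SEMA6A with ranges that overlapped. Otulin, the deubiquitinase of linear chains, rose by 0.51 (limma adjusted p = 0.00012). With each library centred on its median, Tnfaip3 was no longer a DEG (−0.45) and Fadd, the adaptor of caspase-8, became one with higher expression (0.51).

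The inputs and modifiers of necroptosis were mixed, with 10 of 14 genes tested and 2 DEGs, both with lower expression. Tlr3, a receptor for double-stranded RNA, fell from 4.55 ± 0.137 to 2.37 ± 0.734 TPM (−0.74, limma adjusted p = 0.0105). Adar, which edits double-stranded RNA and limits the ligands of ZBP1, fell by 0.55 (limma adjusted p = 9.3e-05), and it shares 15.4% of its stretches with other genes. With each library centred on its median, Adar was no longer a DEG (−0.46) and Cdc37 was one with higher expression (0.54), which made 1 lower and 1 higher. The chaperone genes Hsp90aa1 and Cdc37 were higher by 0.35 and 0.45 and Stub1 by 0.36 in log2(TPM + 1), within the fold limit, with 51.5% of the stretches of Hsp90aa1 and 37.0% of those of Stub1 shared with other genes, so both are uncertain. The death ligands Tnf and Fasl had group means of at most 0.0467 TPM.

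Of the ESCRT-III machinery, which removes damaged membrane and delays both kinds of lysis, 14 of 15 genes were tested and 2 were DEGs with higher expression. Chmp2a rose from 99.6 ± 6.80 to 144 ± 5.42 TPM and Chmp6 from 16.3 ± 1.63 to 24.0 ± 0.689 TPM, each by 0.53 in log2(TPM + 1). Both stood close to the fold limit. None of the 14 was a DEG with lower expression in limma. Without the fold limit 6 were lower and 3 higher after adjustment (28.2% and 19.5% of all genes tested), and 7 were lower and 3 higher before it (32.6% and 22.3%).

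**Figure D3:**
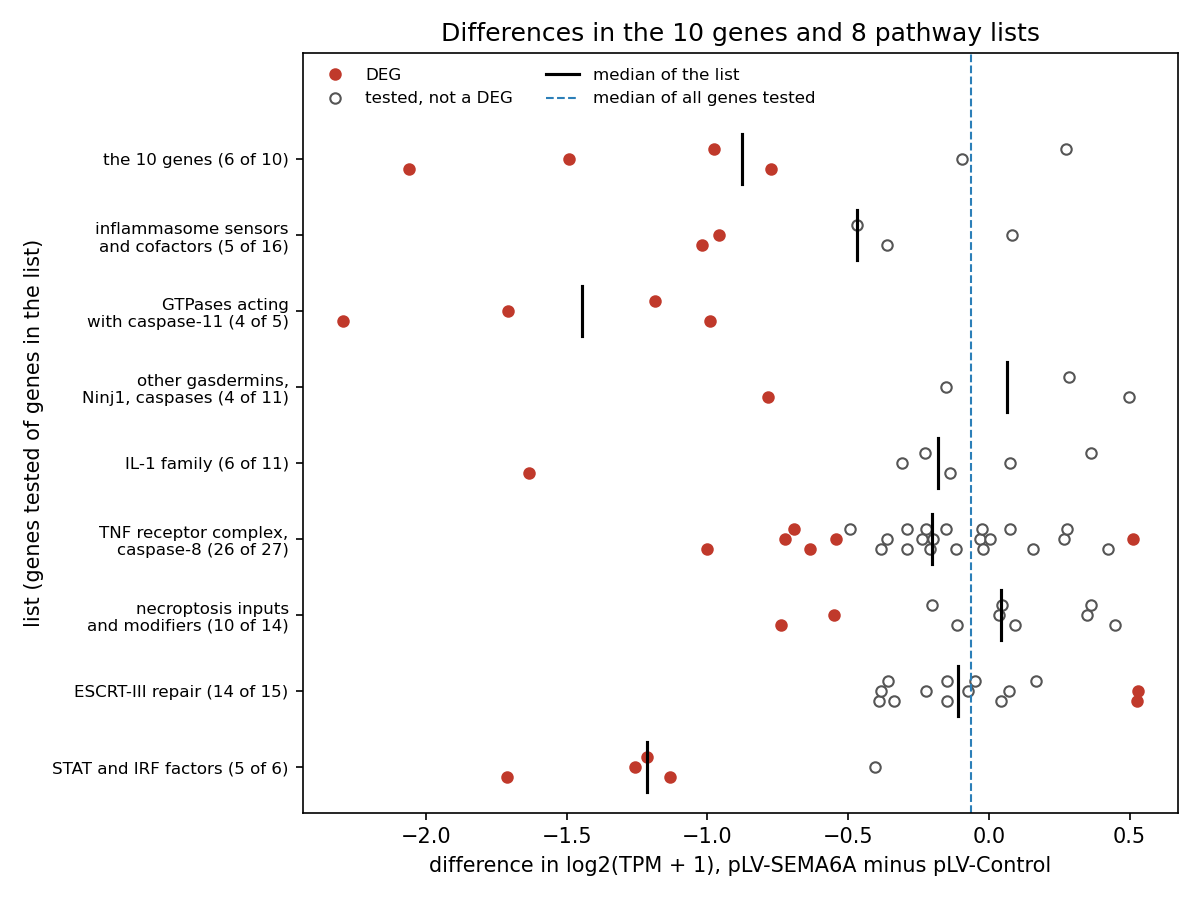
Difference between pLV-SEMA6A and pLV-Control in log2(TPM + 1) for each gene tested among the 10 genes and in the 8 pathway lists (rows, with genes tested of genes listed). Filled points are DEGs, black bars are the medians of the lists and the dashed line is the median of all genes tested (−0.06). The tested GTPases that act with caspase-11 and the tested STAT and IRF factors all lie to the left of the line. The lists for the TNF receptor complex, necroptosis inputs and ESCRT-III spread to both sides of the line.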

How the data were processed

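RNA was measured in 3 pLV-Control and 3 pLV-SEMA6A libraries, grouped by their labels. The authors deposited TPM with 2 decimals for each library, and group means that were not used. The submitters' processing notes name HISAT, Bowtie2, RSEM and the build mm39, without versions or roles. Read counts were not analysed here, so depth is unknown.

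log2(TPM + 1) was fitted in R 4.3.3 by limma 3.58.1 (trend on, group alone in the model) across the 12510 genes whose mean reached 1 TPM, with Benjamini-Hochberg adjustment. The fit was run on simulated data with independent noise and 200 genes changed, against 3523 lower and 2436 higher genes past the adjusted p here. That run checks the code and does not test the fit on data such as these. Exact permutation tests were two-sided. The alternatives were a pseudocount of 0.1, no filter or at least 5 TPM, other fold limits, the replicate block, median centring, limma without trend and leaving out each library.

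The genes and lists were chosen with earlier results of these data known. Named genes are the 10, Sema6a, and from each list up to 5 DEGs with the largest differences and any gene needed to read a count of 5 or fewer. The results of 2 list genes are not reported here. Positions and 31-base stretches shared between genes come from GENCODE M21 on GRCm38, which holds 52093 of the 53700 listed identifiers (97.0%) and is not the build in the notes. Promoters come from RefSeq on GRCm38.p6.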

Additional observations from a re-analysis of the deposited data

How the results depend on the processing

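Zbp1, Casp4 and Gsdmd stayed DEGs under all 12 alternatives that refitted the data, between −2.27 and −1.97, −1.56 and −1.40, and −0.82 and −0.68 on the log2 scale, and Il18 under all 11 in which it was tested, between −1.37 and −0.84 (largest adjusted p = 0.0376, limma). Mlkl lost an adjusted p under 0.05 in 9 of 12 and Ripk1 in 4 of 12 (the replicate block, and without pLV-Control replicate 1, pLV-Control replicate 2 or pLV-SEMA6A replicate 2, from 0.0518 to 0.0668), and neither turned direction. With a minimum log2 difference of 1 instead of 0.5, 2 of the 10 genes were lower (Zbp1 and Casp4), 10 genes of the pathway lists were lower and 0 were higher. The shares over all genes at that limit were not counted. With no minimum, 1 of the 6 genes tested was higher (19.5% of all genes tested). Of the 74 list genes tested, 37 were lower and 13 higher, against 28.2% and 19.5% of all genes tested. Gbp5 and Naip6, which reached the limit for testing only through their pLV-Control level, are among the 37. Gbp5 is also among the 10 list genes lower at a minimum of 1. Both add no support to these counts. The 3 list genes that were higher became 5 with a pseudocount of 0.1, where 700 of all 12510 genes tested were higher. They became 6 with each library centred on its median. When 1 library was left out, they numbered from 1 (without pLV-Control replicate 3, 620 of all 12483 genes tested) to 4. The 4 came without pLV-SEMA6A replicate 1 (631 of all 12541) or pLV-SEMA6A replicate 3 (624 of all 12543). Centring changed the split over all genes from 1347 lower and 640 higher to 961 lower and 1002 higher, as it moved the median of all genes from −0.06 to 0.03. With the replicate block, 4 of the 10 genes and 19 list genes were lower and 3 list genes were higher, beside 1301 lower and 623 higher of all 12510 genes tested. Deviations from the group means correlated at −0.08 to −0.02 for libraries of the same number and −0.01 to 0.08 for different ones, so no pairing was visible. With 3 libraries per group, these values cannot show whether the libraries were handled in pairs. TPM carries no read depth, so the counting error of Il18 and of the genes under 1 TPM is unknown.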
